A study of Mus musculus with 24 samples.

Results

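The tricarboxylic acid (TCA) cycle enzymes examined here are 9 nuclear genes for mitochondrial proteins, *Cs*, *Idh2*, *Idh3a*, *Ogdh*, *Sucla2*, *Suclg1*, *Suclg2*, *Fh1* and *Mdh2*. Their members were chosen by gene name, and every non-control probe whose accession belongs to them was taken, which gave 11 of the 55681 probes and 9 of the 21368 named genes on the array. Liver, brain, heart and skeletal muscle RNA of 6 male mice (3 WT, 3 *Rap1* KI/KI) was hybridized to 24 Agilent arrays with a single dye, 1 for each organ of each animal. The *Rap1* KI/KI mice carry 2 copies of the I312R allele of the shelterin protein RAP1, made with Cas9 and crossed back to C57BL6, and the WT mice carry the unedited gene. By the labels, 1 animal of each genotype was aged 5 months (WT1, KI1) and the remaining 4 were aged 2 months. The mice received no treatment that the labels name. All 4 tissues came from these 6 animals, whose names (WT1, WT2 and WT3, and KI1, KI2 and KI3) follow their animal numbers.

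The TCA cycle runs in the mitochondrial matrix, where it oxidizes the acetyl group of acetyl-CoA to carbon dioxide and passes the electrons to the respiratory chain. Heart and skeletal muscle are rich in mitochondria and use the cycle mainly for energy, whereas the liver also draws its intermediates into the synthesis of glucose and other products. Citrate synthase (*Cs*) starts the cycle, isocitrate dehydrogenase and 2-oxoglutarate dehydrogenase release carbon dioxide, succinyl-CoA ligase makes a nucleoside triphosphate, and fumarase (*Fh1*) and malate dehydrogenase (*Mdh2*) regenerate oxaloacetate.

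Levels are log2 intensities relative to the array's own 75th percentile, so that 0 is that percentile and each added unit is a 2-fold step. Each gene is followed across tissues and mice by its brightest probe on average, and the level of a gene is never set against that of another, since probes differ in brightness. All 11 probes were well above background on all 24 arrays and none was saturated. The arrays had 75th percentiles between 470.7 and 1389 intensity units, and 56.5% to 72.7% of the probes were well above background. Summed markers matched the tissue labels, with 6 hepatocyte markers at 1971 to 3976 times the percentile in the liver and at most 124.1 elsewhere, and 6 cardiomyocyte markers at 1515 to 2764 in the heart and at most 5.81 elsewhere. The 6 neuron markers summed to 249.5 to 408.0 in the brain and 6 of skeletal muscle to 2809 to 3691 in the muscle. Some libraries stood apart in markers of other cells. The brain of KI3 had the most fibroblast signal of the brains, the hearts of KI1 and KI3 held more fat cell signal than the other hearts, and the muscle of KI3 had a mean log2 level of 2.17 over the neuron markers, against -4.10 to -1.50 in the other muscles.

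In WT mice, the TCA cycle mRNAs were highest in the striated muscles and lowest in the brain. The WT mean was highest in the heart for 6 of the 9 genes, in the muscle for 2 (*Idh3a* and *Mdh2*) and in the liver for 1 (*Suclg2*), and it was lowest in the brain for 7 and in the liver for 2 (*Cs* and *Idh3a*). The lead of the heart over the next tissue was not called for *Ogdh* (0.73), *Fh1* (0.23), *Cs* (0.08), *Sucla2* (0.05) or *Suclg1* (0.03). All 9 genes were higher in the heart than in the brain (limma, adjusted p below 0.05), as were 32.4% of all probes tested, with 23.6% lower, and their median difference was 2.71 on the log2 scale. All 9 were also higher in the muscle than in the brain, with a median of 2.36, where 34.6% of all probes were called higher and 24.4% lower. With quantile normalization *Mdh2* was at 0.41 in muscle minus brain and was not called, nor was *Idh2* with slide as a block (1.87). For each of the 9 genes, the 6 hearts and the 6 muscles of both genotypes lay above all 6 brains. The share of all probes that separate tissues in this way was not counted, for these or other tissues. In these bulk samples, fewer cells of a type and less RNA per cell cannot be told apart.

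**Figure D1:**
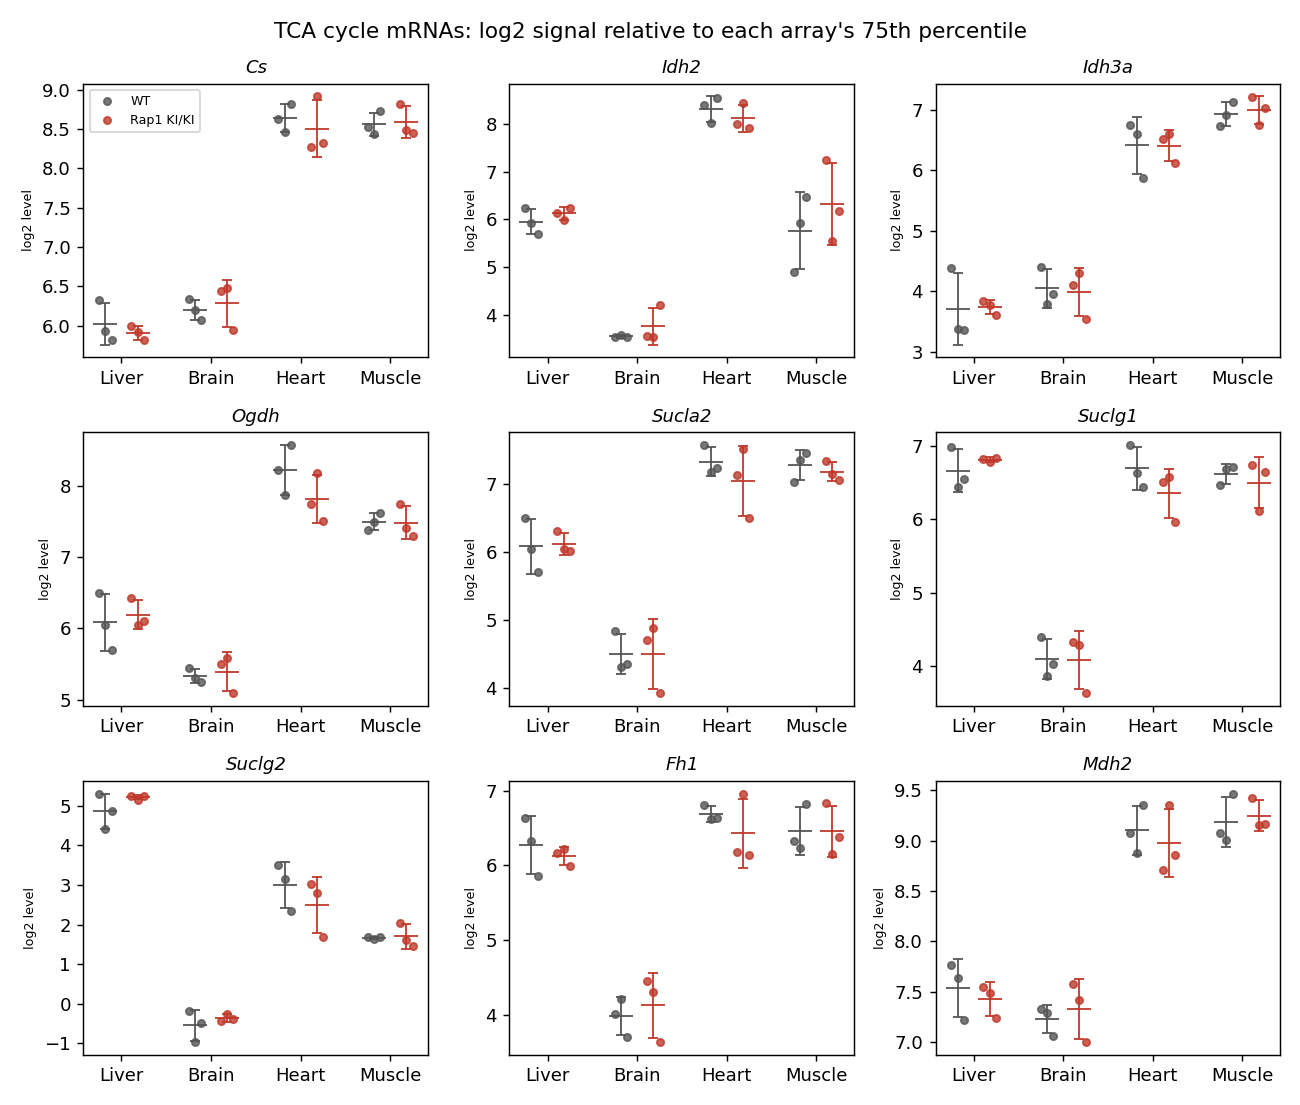
Log2 level (vertical axes, relative to the array's 75th percentile) of the 9 TCA cycle mRNAs in the 4 tissues, with WT mice in grey and Rap1 KI/KI mice in red. Points are mice, horizontal bars are means and error bars the SD of 3 mice. *Suclg2* is highest in the liver, and all 9 genes are lower in the brains than in the hearts and muscles.

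Against the liver, the striated muscles were higher for some steps only. Between heart and liver, 6 genes were higher and 1 lower in the heart, with a median of 1.56, where 24.6% of all probes were called higher and 26.4% lower. Between muscle and liver, 5 were higher and 1 lower in the muscle, with a median of 1.20, beside 27.5% and 27.9% of all probes. In both comparisons the gene that was lower was *Suclg2*. Between liver and brain, 6 genes were higher in the liver and none lower, with a median of 1.58, beside 39% of all probes higher and 28.6% lower. With quantile normalization *Sucla2* was at 0.39 in liver minus brain and was not called, and *Ogdh* turned to -0.57. Heart and muscle were close to each other, with 2 genes higher in the heart (*Idh2* and *Suclg2*) and none higher in the muscle, and a median of 0.08, beside 14.9% and 14.5% of all probes. The *Suclg2* difference of 1.33 was not called without WT1 (1.09), without WT2 (1.24) or with slide as a block (0.68).

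Heart and muscle RNA was extracted with a different kit from liver and brain RNA, so that kit and tissue cannot be told apart in 4 of the 6 tissue comparisons. Heart and liver, muscle and liver, and muscle and brain arrays shared no slide, so that slide as a block compares these tissues only by way of the others.

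*Cs*, the gene of the enzyme that joins acetyl-CoA to oxaloacetate, fell into 2 levels. In the livers it was 6.33, 5.94 and 5.82 in WT1 to WT3 and 5.99, 5.93 and 5.82 in KI1 to KI3, and in the brains 6.34, 6.19 and 6.08, and 6.44, 6.48 and 5.95. In the hearts it was 8.63, 8.46 and 8.82 in the WT mice and 8.27, 8.92 and 8.32 in the *Rap1* KI/KI mice, and in the muscles 8.52, 8.44 and 8.73, and 8.82, 8.49 and 8.45. Livers and brains overlapped, as did hearts and muscles, and the 2 pairs of tissues lay apart. The WT difference between heart and liver was 2.61 (SE 0.21, adjusted p = 1.1e-06), or 6.11-fold.

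*Idh3a* encodes a catalytic subunit of the NAD-dependent isocitrate dehydrogenase, and it had the same grouping of tissues. Its WT means were 3.71 ± 0.59 in liver, 4.05 ± 0.32 in brain, 6.41 ± 0.47 in heart and 6.92 ± 0.20 in muscle (SD, n = 3). Muscle exceeded liver by 3.21 (SE 0.34, adjusted p = 9.2e-06), a 9.25-fold difference, while liver minus brain was -0.34 (SE 0.34, adjusted p = 0.39) and heart minus muscle -0.51 (SE 0.34, adjusted p = 0.29), neither of which passed the test. *Mdh2*, whose product oxidizes malate, followed with 7.54 ± 0.29 in liver, 7.23 ± 0.14 in brain, 9.10 ± 0.24 in heart and 9.19 ± 0.25 in muscle. Its span between tissues was the smallest of the 9, at 1.96 between muscle and brain.

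*Idh2* encodes the NADP-dependent isocitrate dehydrogenase of mitochondria, which supplies NADPH to the matrix. It was the member for which heart and muscle differed most. The WT hearts were at 8.40, 8.02 and 8.55 and the *Rap1* KI/KI hearts at 8.0, 8.45 and 7.92. The muscles were at 4.89, 5.92 and 6.47 in the WT mice and 7.26, 5.55 and 6.18 in the *Rap1* KI/KI mice. Every heart lay above every muscle, and *Idh2* was the only member of which this was true. The livers ranged from 5.70 to 6.25 and the brains from 3.52 to 4.20. In WT mice the heart exceeded the muscle by 2.56 (SE 0.35, adjusted p = 0.00025), the liver by 2.36 (adjusted p = 0.00016) and the brain by 4.78 (adjusted p = 5.1e-07), the last a 27.4-fold difference. Muscle and liver means differed by less than the error (adjusted p = 0.66).

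The muscles varied more in *Idh2* than in any other member, with an SD of 0.80 in the WT and 0.86 in the *Rap1* KI/KI mice. The 4 genes of slow contractile fibres (*Myh7*, *Tnni1*, *Tnnc1* and *Myl2*) varied over the same arrays. Their summed signal relative to the percentile was 2.23 in WT1, 3.38 in WT2, 6.72 in WT3, 143.7 in KI1, 1.62 in KI2 and 24.9 in KI3. The muscle of KI1 was the highest in both measures, and those of WT1 and KI2 were the lowest pair in both. The muscle of KI1 was also the highest in 5 neutrophil markers, at 91.2 against 0.77 to 12.5 in the others, and in red cell markers, at 413.3 against 136.7 to 315.7. The muscles of WT1 and KI2, lowest in *Idh2*, had the most signal of 6 fat cell markers, 1057 and 1463 against 194.0 to 576.5 in the others. The part of fibre type, fat cells or these blood cells in the *Idh2* spread was not tested.

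*Ogdh*, the gene of the first component of the 2-oxoglutarate dehydrogenase complex, was highest in the heart. Its WT means were 6.08 ± 0.40 in liver, 5.33 ± 0.10 in brain, 8.22 ± 0.35 in heart and 7.49 ± 0.12 in muscle. The heart exceeded the liver by 2.14 (SE 0.25, adjusted p = 2.7e-05), and its difference of 0.73 from the muscle missed the threshold (adjusted p = 0.051). The liver exceeded the brain by 0.75 (adjusted p = 0.020), but with quantile normalization this difference turned to -0.57, and it was not called without WT1 (0.60), without WT2 (0.76), with z-scores (0.28) or with slide as a block (0.64). *Ogdh* was the only gene with several probes, 3 in all. The dimmest of them, at 2.00 in the WT hearts, 1.69 in the livers and 0.81 in the muscles, was lower in the muscle than in the liver by a difference of -0.89 (adjusted p = 0.013), the opposite direction to the other 2. Its difference between heart and liver was 0.31 (adjusted p = 0.35). Between heart and muscle this probe was called, at 1.20 (limma adjusted p = 0.0047), and the remaining probe was at 0.74 (adjusted p = 0.053). In WT liver minus brain both were called, the dimmest at 1.76 (limma adjusted p = 9.3e-05) and the remaining probe at 1.05 (adjusted p = 0.0036).

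Succinyl-CoA ligase pairs a common alpha subunit (*Suclg1*) with a beta subunit that sets the nucleotide, *Sucla2* for ADP and *Suclg2* for GDP. The 250 bases before the annotated start of each gene are shown because these subunits of the same enzyme had different orders of tissues. They come from RefSeq (build GRCm38.p6), with a match to the NRF1 motif (GCGC, any base, TGCGC) in capitals.
Sucla2, chr14:73552536-73552785, + strand: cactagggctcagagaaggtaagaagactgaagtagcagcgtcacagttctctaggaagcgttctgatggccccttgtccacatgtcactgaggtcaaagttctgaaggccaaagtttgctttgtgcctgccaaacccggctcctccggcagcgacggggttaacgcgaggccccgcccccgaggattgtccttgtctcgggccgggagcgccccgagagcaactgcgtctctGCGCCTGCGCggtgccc
Suclg1, chr6:73248255-73248504, + strand: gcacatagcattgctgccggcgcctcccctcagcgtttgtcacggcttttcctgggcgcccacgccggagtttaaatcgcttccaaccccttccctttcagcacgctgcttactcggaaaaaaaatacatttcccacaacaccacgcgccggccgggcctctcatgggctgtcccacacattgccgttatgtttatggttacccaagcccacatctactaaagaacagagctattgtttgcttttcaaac
Suclg2, chr6:95718847-95719096, - strand: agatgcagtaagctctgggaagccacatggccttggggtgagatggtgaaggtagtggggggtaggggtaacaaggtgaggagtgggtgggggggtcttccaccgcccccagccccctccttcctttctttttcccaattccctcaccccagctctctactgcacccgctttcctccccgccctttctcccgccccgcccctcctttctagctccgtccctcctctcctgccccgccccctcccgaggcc
Of these 3 windows only that of *Sucla2* held the NRF1 motif, on either strand, as did 3.74% of 32851 promoter windows of the same length. The ERR element AAGGTCA (4.08% of windows) and the GABPA motif CCGGAAG (6.91%) were in none of the 13 windows of the members with an entry, which cover 8 of the 9 genes. A match is a description of the letters and says nothing on binding.

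In WT mice *Suclg2* had the largest span between tissues of the 9 genes and was the only one whose mean was highest in the liver. It was 5.29, 4.41 and 4.88 in the livers of WT1 to WT3 and 5.24, 5.15 and 5.24 in those of KI1 to KI3. In the hearts it was 3.49, 3.15 and 2.35 in the WT and 3.01, 2.79 and 1.70 in the *Rap1* KI/KI mice. The muscles were at 1.68, 1.64 and 1.68, and 2.04, 1.61 and 1.45, and the brains at -0.19, -0.97 and -0.47, and -0.45, -0.25 and -0.38. All livers lay above all hearts, and all hearts and muscles above all brains, while hearts and muscles overlapped. In WT mice the liver exceeded the brain by 5.40 (SE 0.33, adjusted p = 6.7e-08), a 42.3-fold difference. The muscle was 9.15-fold and the heart 3.63-fold below the liver (adjusted p = 9.3e-06 and 0.00067). With slide as a block the differences shrank to -1.68 and -1.0 on the log2 scale, from -3.19 and -1.86, and neither was called.

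*Sucla2* was higher in the striated muscles than in the liver, the reverse of *Suclg2*. Its WT means were 6.09 ± 0.40 in liver, 4.51 ± 0.29 in brain, 7.34 ± 0.21 in heart and 7.29 ± 0.22 in muscle. The heart exceeded the liver by 1.25 (SE 0.26, adjusted p = 0.0019) and the muscle exceeded it by 1.20 (adjusted p = 0.0023), a difference not called without WT3 (0.92). *Suclg1* did not separate these 3 tissues, with WT means of 6.66 ± 0.29 in the liver, 6.69 ± 0.29 in the heart and 6.62 ± 0.14 in the muscle, and its 95% interval for heart minus liver ran from -0.50 to 0.56. The brain, at 4.10 ± 0.28, was lower than each of them. *Fh1*, the fumarase gene, was at 6.27 ± 0.39, 6.69 ± 0.11 and 6.46 ± 0.32 in liver, heart and muscle and 3.98 ± 0.25 in the brain.

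Within an array, the log2 difference of *Suclg2* minus *Sucla2* cancels the scaling of that array, and its shift between tissues shows unequal change of the 2 mRNAs. It ran from -1.64 to -0.78 over the 6 livers, from -4.89 to -4.03 over the hearts, from -5.29 to -4.30 over the brains and from -5.78 to -5.31 over the muscles. The livers did not overlap with any other tissue. By genotype they ran from -1.64 to -0.83 in WT and from -1.08 to -0.78 in *Rap1* KI/KI mice. With quantile normalization the livers were at -1.43 to -0.74 and the others at -6.12 to -3.87. The absolute value carries no meaning, since the 2 probes differ in brightness.

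**Figure D2:**
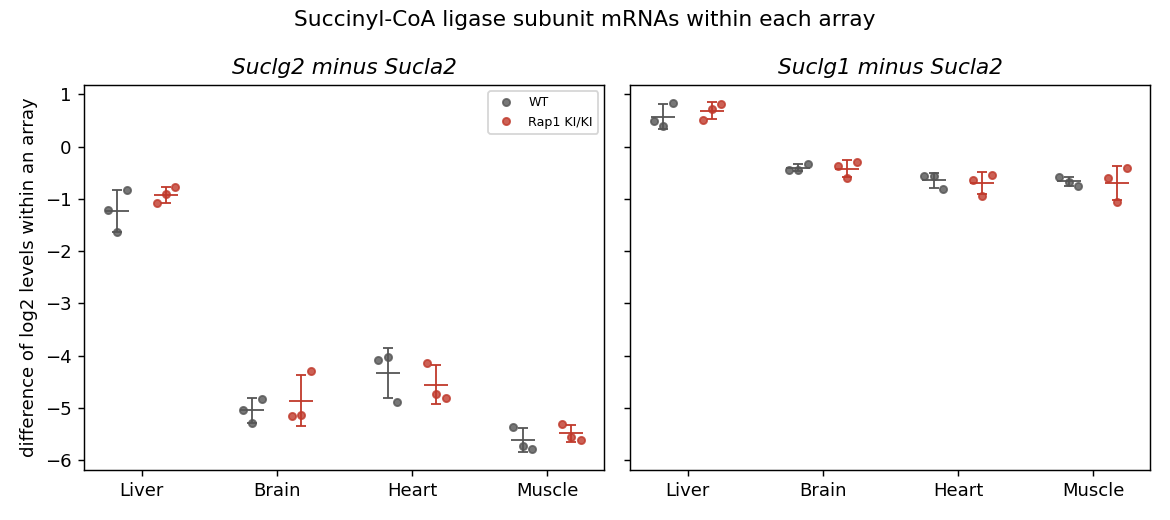
Difference of log2 levels within each array (vertical axis) between succinyl-CoA ligase subunit mRNAs, *Suclg2* minus *Sucla2* on the left and *Suclg1* minus *Sucla2* on the right, by tissue. Points are mice (WT grey, Rap1 KI/KI red), with the mean and SD of 3. The livers, at -1.64 to -0.78 on the left, stand above the other tissues.

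The *Rap1* KI/KI mice, fitted on their own, gave the same counts of calls between tissues except between heart and muscle. The order of the means differed for some genes. *Cs*, *Sucla2* and *Fh1* were highest in the muscle and *Suclg1* in the liver, while in WT mice they were highest in the heart. None of these leads over the heart was called. All 9 genes were higher in heart than brain (34.3% of all probes, with 22.2% lower) and in muscle than brain (35%, with 23.4% lower), and 6 were higher in liver than brain (41.3%, with 29.6% lower). With quantile normalization *Mdh2* in muscle minus brain (0.32) and *Sucla2* in liver minus brain (0.51) were not called. The heart was higher than the liver for 6 and lower for 1 (29.5% and 29.6% of all probes), and the muscle higher for 5 and lower for 1 (31.9% and 30%). Between heart and muscle 1 gene, *Idh2*, was called higher in the heart (12.7% of all probes, with 14.1% lower), by 1.80 (SE 0.38, adjusted p = 0.0056), and it was not called without KI2 (1.24) or with slide as a block (1.59). *Suclg2* was at -2.71 (SE 0.31) for heart minus liver and at 5.57 for liver minus brain. The genotype by tissue interaction was called for none of the 9 genes and for 0 of 43674 probes by limma, and at an unadjusted p below 0.05 for 0 of the 9 and 2.94% of the probes.

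Between the genotypes, no TCA cycle mRNA was called in any tissue. After adjustment 0 of the 9 were called, as were 0% of all probes in each tissue, and at an unadjusted p below 0.05 limma called 0 of the 9, beside 2.13% (liver), 2.62% (brain), 7.51% (heart) and 2.48% (muscle) of all probes. For none of the 9 did the 3 *Rap1* KI/KI mice lie on one side of the 3 WT mice, beside 5.85%, 7.74%, 14.7% and 6.45% of all probes in the same order. The median difference, *Rap1* KI/KI minus WT, was 0.04 (liver), 0.08 (brain), -0.26 (heart) and 0.02 (muscle), where the medians of all probes were -0.01, -0.05, -0.02 and -0.07. With 1 mouse left out, the medians ranged from -0.14 to 0.31 in the livers (0.31 without WT1), from -0.01 to 0.22 in the brains, from -0.45 to -0.09 in the hearts and from -0.14 to 0.10 in the muscles.

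**Figure D3:**
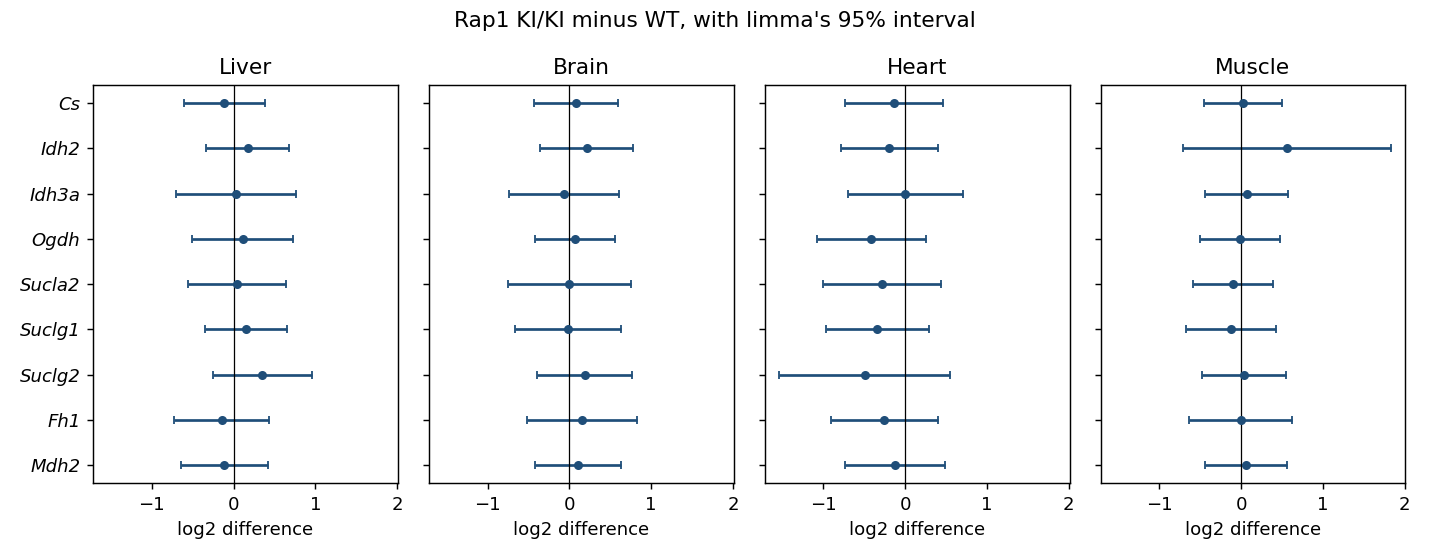
Log2 difference of Rap1 KI/KI minus WT (horizontal axes) for the 9 TCA cycle mRNAs in each tissue. Points are limma estimates from 3 mice of each genotype and bars their 95% intervals, all of which include 0.

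The smallest p in each tissue belonged to *Suclg2* in the liver, *Idh2* in the brain and the muscle and *Ogdh* in the heart. *Suclg2* in the liver differed by 0.35 (SE 0.26, 95% interval -0.26 to 0.96, limma adjusted p = 1.0). *Ogdh* in the heart was at 8.22, 7.87 and 8.57 in the WT and 7.74, 8.17 and 7.51 in the *Rap1* KI/KI mice, a difference of -0.41 (SE 0.28, 95% interval -1.08 to 0.25, adjusted p = 0.70). *Idh2* in the muscle differed by 0.57 (SE 0.54, 95% interval -0.71 to 1.84, adjusted p = 0.94). In the brain *Idh2* differed by 0.21 (SE 0.23, adjusted p = 1.0), with KI3 at 4.20 and the other 5 brains between 3.52 and 3.58. Without KI3 the difference was -0.0106. The brain of KI3 also had the most signal of 4 fibroblast markers, 52.7 against 11.4 to 22.1 in the other brains, and of smooth muscle markers, 15.8 against 7.48 to 9.80, and its neuron markers had the lowest sum, 249.5. The part of these cells in its *Idh2* level was not tested.

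In the heart the fitted difference was below 0 for 9 of the 9 genes, with estimates from -0.50 for *Suclg2* to -0.002 for *Idh3a*, none of which passed the test. All 9 estimates rest on the same hearts. The median of all probes was -0.02, and the share of all probes below 0 was not counted. The median of the 9 genes relative to the WT mean was -0.32 in KI1, 0.18 in KI2 and -0.54 in KI3, and 0.12, -0.15 and -0.05 in WT1 to WT3. The hearts of KI1 and KI3 were thus the lowest and that of KI2 the highest. The summed signal of 6 fat cell markers, all of them above background in every heart, was 383.4 in KI1, 282.7 in KI2 and 670.5 in KI3, and 228.9 to 244.8 in the WT hearts. Their mean log2 level was 4.47 in KI1, 2.08 in KI2 and 5.68 in KI3, and -1.49, 2.08 and 1.93 in WT1 to WT3. By this measure KI2 did not stand above WT2. *Adipoq*, the adiponectin gene, was at 4.05 and 4.86 in KI1 and KI3 and between -4.23 and 0.72 in the other 4 hearts. The 4 smooth muscle markers summed to 356.4 and 234.4 in KI1 and KI3 and to 69.7 to 119.3 in the others. The part of these cells in the lower levels was not tested. Without KI1 and KI3, the lowest hearts, only KI2 is left, so that the median difference of 0.18 repeats its own value. Within the slide that held 2 hearts of each genotype the median was -0.09, and it was -0.50 between the pair of hearts on the other slide.

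**Figure D4:**
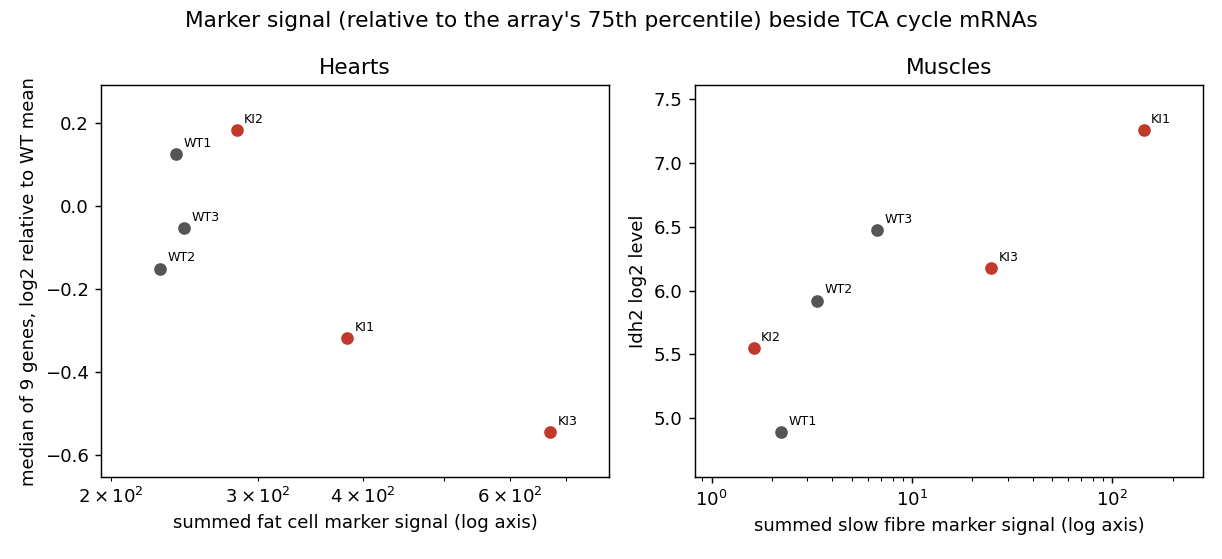
Left, the median of the 9 TCA cycle mRNAs in each heart (log2, relative to the WT mean) against the summed fat cell marker signal. Right, the *Idh2* log2 level in each muscle against the summed slow fibre marker signal; both horizontal axes are logarithmic, relative to the array's 75th percentile, with WT mice in grey and Rap1 KI/KI mice in red. The hearts of KI1 (383.4) and KI3 (670.5) have the most fat cell signal and the lowest medians, and the muscle of KI1 has the most slow fibre signal and the highest *Idh2*.

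The rest of the cycle was covered by 9 further genes, among them *Idh3b*, *Idh3g*, *Dlst* and the succinate dehydrogenase genes. In WT mice all 9 exceeded the brain in heart and muscle, with medians of 2.58 and 2.33. Beside them, 32.4% and 34.6% of all probes were called higher. Against the liver, 7 were higher in the heart and 5 in the muscle, and none was lower. Of all probes, 24.6% and 27.5% were called higher and 26.4% and 27.9% lower. The *Idh3b* and *Idh3g* subunits exceeded the liver in the heart by 1.96 and 2.33. *Sdha*, the flavoprotein subunit of succinate dehydrogenase, was at 6.42 ± 0.21 in the liver and 6.93 ± 0.14 in the heart, a difference that missed the threshold (adjusted p = 0.070). Between genotypes 0 of these 9 were called in any tissue, and in the heart the median was -0.26, with 9 of 9 estimates below 0. These estimates rest on the same hearts as those of the members.

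Around the cycle, genes that feed and drain it differed in both directions between tissues, as did all probes. Those named here are among the 4 genes with the widest ranges of their lists. Also among these were *Pdp1* and *Pdk3*, highest in the WT brain, and *Pck1*, highest in the liver. Of 14 genes of pyruvate entry, 10 were higher and 2 lower in the WT heart than in the liver, and 11 and 2 than in the brain. Of all probes, 24.6% were called higher and 26.4% lower than in the liver, and 32.4% and 23.6% than in the brain. *Pdk4*, a kinase that turns off pyruvate dehydrogenase, was at 6.45 ± 0.32 in the heart and 6.47 ± 0.40 in the muscle and at -0.96 ± 0.31 in the liver. *Pcx*, the pyruvate carboxylase gene, was highest in the liver at 7.14 ± 0.32 and lowest in the heart at 3.32 ± 0.21. Among 19 cytosolic counterparts, anaplerotic enzymes and carriers, 8 were higher and 8 lower in the heart than in the liver, beside the same 24.6% and 26.4%. *Gls2*, the liver glutaminase gene, was at 7.22 ± 0.40 in the liver and -2.36 ± 0.51 in the heart, and *Me3*, a mitochondrial malic enzyme gene, at -4.14 ± 0.27 and 5.81 ± 0.20.

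Succinyl-CoA also meets ketone body metabolism. *Oxct1*, whose enzyme uses succinyl-CoA to activate ketone bodies, was at 7.94 ± 0.07 in the heart, 6.82 ± 0.41 in the muscle, 5.38 ± 0.20 in the brain and 0.36 ± 0.43 in the liver of WT mice. Of the 9 genes tested in a list of ketone body use and side reactions of succinyl-CoA, such as haem and GABA metabolism, 3 were higher and 6 lower in the heart than in the liver. Of 7 regulators of mitochondrial genes, 4 were called higher and none lower in the WT heart than in the liver. For *Rap1* KI/KI hearts the calls were 4 above the liver and 2 below it. The shares of all probes were 29.5% and 29.6% in that genotype. Beside both WT counts, 24.6% of all probes were called higher and 26.4% lower. In WT mice the estimates of 3 regulators were below 0 without a call. Of these, *Gabpa* was at 2.15 ± 0.51 in the liver and 1.59 ± 0.54 in the heart. *Ppargc1a*, a coactivator of mitochondrial genes, was at 3.98 ± 0.11 in the heart, 2.79 ± 0.19 in the muscle, 2.53 ± 0.09 in the brain and 0.65 ± 0.38 in the liver, and *Esrrg*, a nuclear receptor, at 2.05 ± 0.54, -0.02 ± 0.85, 0.88 ± 0.33 and -2.35 ± 0.14 in the same order.

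Over the 24 arrays, the genes outside the 9 whose levels were most like each of them were found by Pearson's r among 12701 genes above background on all arrays. The points share 6 mice and 4 tissues, so that r mainly describes the order of the tissues. *Cs* was most like *Pdrg1* (r = 0.996), *Idh2* like *Plin3* (r = 0.973), *Idh3a* like *Lmod3* (r = 0.983) and *Ogdh* like *Mrps23* (r = 0.994). *Sucla2* was most like *Mrpl30* (r = 0.989), *Suclg1* like *Mrps24* (r = 0.995), *Suclg2* like *Immp2l* (r = 0.993), *Fh1* like *Gfm1* (r = 0.992) and *Mdh2* like *Micos10* (r = 0.992). Among the 9 themselves, r was 0.980 between *Cs* and *Mdh2*, 0.957 between *Suclg1* and *Fh1*, and -0.09 between *Cs* and *Suclg2*.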

How the data were processed

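The authors deposited intensity values of Cy3 arrays, processed by Feature Extraction 12.0.3.1 with background subtracted but not normalized across arrays. They also deposited score values, a table of z scores that they computed within each array. Z scores recomputed from the log10 signals of all spots matched them to rounding. The array test is not given in the sources used here.

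Control spots (3671 per array) and outlier flags were left out, spots of a probe were averaged, and log2 signals were set relative to the 75th percentile of each array. Probes well above background on at least 3 arrays of a comparison were tested using limma 3.58.1 and R 4.3.3 (two-sided, Benjamini-Hochberg over all tested probes, threshold 0.05). Genotypes were compared within each tissue, tissues within each genotype. Names came from RefSeq accessions (28331 of 55681 probes). The probe brightest on average over the 24 arrays stands for a gene. Genes named are all 9 members, further TCA genes, at most 4 of each list by range over WT tissues, and up to 3 most alike genes, of which the first is given; some genes are not reported here. The members and lists were chosen with earlier results of these data known. The procedures were tested on simulated data.

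Alternatives were quantile normalization, z-scores, normexp (offset 50, on median signals, since mean signals were not in the files used here), no filter, a stricter filter, the mean over probes, each mouse left out, age, slide or mouse as a block, and trend with robust eBayes. The same 6 mice gave all tissues; deviations of 2 tissues of a mouse correlated at -0.32 to 0.38 over 36 pairs (median 0.09). The number of arrays limits the precision, and an array signal gives no depth.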

Additional observations from a re-analysis of the deposited data

How the results depend on the processing

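Of 77 tissue differences of single genes called in either genotype, 60 kept their direction and their side of the threshold under every alternative run. Quantile normalization turned *Ogdh* in the liver against the brain to -0.57 in WT and -0.46 in *Rap1* KI/KI mice. *Idh2* between genotypes in the brain turned to -0.0106 without KI3. The all-probe median against the brain was 0.21 to 0.33 in WT mice and up to 0.61 with normexp. The count of TCA cycle mRNAs called between heart and muscle changed with the setting. In WT mice it was 2, and 4 with quantile normalization and 1 to 2 with a mouse left out (1 without WT1 and 1 without WT2, where *Suclg2* was lost). In *Rap1* KI/KI mice it was 1, and 3 with quantile normalization, 2 with z-scores, 2 with normexp, 0 with slide as a block and 0 to 2 with a mouse left out (0 without KI2, 2 without KI3). Between muscle and liver in WT mice it was 6, and 3 with slide as a block. The median difference between genotypes was -0.14 to 0.31 in the liver with a mouse left out (0.31 without WT1). Without KI1 and KI3 it was 0.18 in the heart, an alternative chosen after seeing the data. That setting leaves only KI2 and repeats its own value. The cause of these shifts was not tested. With the mouse as a replicate block, the pairing changed no count of calls: 9 against the brain in heart and muscle, 7 in heart against liver, 6 in muscle against liver and in liver against brain. Probes with low signal were not at issue, since all 11 were above background on every array.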
